A study of Rattus norvegicus with 23 samples.

Results

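The effect of semaglutide on the rat femur was measured over libraries with and without PYY at once, so that 10 libraries carrying semaglutide were set against 9 without it. The comparison took the 19 of 23 libraries whose titles name the high-fat diet and a further abbreviation (lfd) that the labels do not explain, and it left out the 4 healthy control libraries. Members were assigned by the titles alone, and the presence of PYY entered the model as the second factor. The groups were semaglutide (n = 5), semaglutide with PYY (n = 5), PYY (n = 4) and saline (n = 5). All 19 libraries came from the femora of female Wistar rats with MetOP, the metabolic osteoporosis model of the labels, made by feeding high-fat diet and giving L-NAME, which blocks nitric oxide synthase, so the saline rats carried the model too. The treatment labels of the PYY libraries name peptides numbered PYY3-36 to PYY3-39, and their grouping rests on the shared title. Ages and doses are not given, all libraries carry batch label 1, and the labels do not say whether each library stems from its own animal, so the p-values reflect only how far these samples scatter, which may be technical. Of 30562 genes in the table, 15079 had enough counts to be tested, and 14507 of these lie on the 20 autosomes and are described here.

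Semaglutide is a long-acting analogue of the gut hormone GLP-1 that activates the GLP-1 receptor and is used to lower blood glucose and body weight. Bone is kept in balance by osteoblasts, which lay down and mineralize a matrix of mostly type I collagen, by osteoclasts, which dissolve it with acid and proteases, and by osteocytes buried within it. DDR2 is a receptor tyrosine kinase whose ligand is fibrillar collagen, and in mice its loss impairs skeletal growth and the maturation of osteoblasts. The femur also holds blood-forming marrow, vessels, cartilage and attached muscle, all of which contribute RNA to a bulk library. Glp1r, the gene of the semaglutide receptor, had 0 counts in all 19 libraries, which allows up to 0.0738 to 0.156 counts per M (CPM, M for mega) of a library.

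The stretches around the transcription starts of 5 autosomal genes among those of smallest p or of the bone matrix are printed here, since these genes carried the pattern described below. They come from RefSeq, assembly GRCr8, run from 250 bases before to 50 bases after the start, and are written 5′ to 3′ on the strand of the gene. Capitals mark matches, on either strand, to 4 short motifs, namely the CCAAT box (CCAAT), the TATA box (TATAAA), the GC box (GGGCGG) and the core bound by RUNX factors (TGTGGT). The 3 bone matrix genes Ibsp, Bglap and Col1a2 are shown because each holds a TATA box match, Col6a3 because it had the second smallest p and holds no match, and Ccnk because it was the only autosomal gene without overlap between the libraries. Of the 71 genes considered for the text, 56 had an entry in the table.
Ibsp (chr14:5757193-5757492, minus strand): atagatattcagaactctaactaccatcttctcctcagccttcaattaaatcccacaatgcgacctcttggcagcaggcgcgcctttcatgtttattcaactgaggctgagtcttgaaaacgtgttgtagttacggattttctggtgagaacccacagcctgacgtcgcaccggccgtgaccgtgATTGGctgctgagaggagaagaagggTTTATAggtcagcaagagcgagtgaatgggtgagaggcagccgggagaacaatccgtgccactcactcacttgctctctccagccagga
Bglap (chr2:176137269-176137568, minus strand): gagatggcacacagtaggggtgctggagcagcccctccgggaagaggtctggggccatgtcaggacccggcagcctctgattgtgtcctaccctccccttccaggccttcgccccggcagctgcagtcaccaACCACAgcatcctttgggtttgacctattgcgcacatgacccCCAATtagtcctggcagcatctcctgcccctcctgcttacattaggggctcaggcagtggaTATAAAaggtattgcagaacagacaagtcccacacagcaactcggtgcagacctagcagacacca
Col1a2 (chr4:33518307-33518606, plus strand): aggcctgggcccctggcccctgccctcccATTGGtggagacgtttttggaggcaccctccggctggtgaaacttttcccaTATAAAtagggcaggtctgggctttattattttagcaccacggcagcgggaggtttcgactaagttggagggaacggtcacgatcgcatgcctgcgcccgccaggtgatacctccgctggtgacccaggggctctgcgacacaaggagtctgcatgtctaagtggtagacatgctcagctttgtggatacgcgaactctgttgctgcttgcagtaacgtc
Col6a3 (chr9:98886909-98887208, minus strand): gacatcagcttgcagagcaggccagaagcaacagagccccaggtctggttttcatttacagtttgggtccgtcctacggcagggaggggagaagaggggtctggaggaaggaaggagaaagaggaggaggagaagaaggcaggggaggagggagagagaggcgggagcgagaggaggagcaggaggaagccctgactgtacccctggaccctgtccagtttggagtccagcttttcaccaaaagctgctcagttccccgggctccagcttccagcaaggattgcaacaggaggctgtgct
Ccnk (chr6:132854732-132855031, plus strand): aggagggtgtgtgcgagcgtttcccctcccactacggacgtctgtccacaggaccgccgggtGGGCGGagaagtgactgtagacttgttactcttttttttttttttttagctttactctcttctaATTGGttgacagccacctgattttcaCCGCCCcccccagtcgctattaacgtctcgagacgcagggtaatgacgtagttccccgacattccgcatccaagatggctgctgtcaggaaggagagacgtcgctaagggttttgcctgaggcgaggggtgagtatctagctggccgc

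The TATA box match began 39 bases before the start in Ibsp, 15 before it in Bglap and 170 before it in Col1a2. A TATA box match was present in 7 of the 14 osteoblast genes with an entry and in 14.3% of all 27457 promoters of the same length. It was present in 1 of 9 genes of fibroblasts and the vessel sheath, which were also lower with semaglutide, and in 1 of 27 genes of oxidative phosphorylation. A CCAAT box match was present in 5 of the 14 osteoblast genes and in 37.7% of all promoters, a GC box match in 5 and in 34.9%, and a RUNX core match in 5 and in 16.9%. These are matches of letters within the window and were not tested.

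Depth and makeup differed between libraries. Totals ran from 19.25 to 40.65 M counts, of which 4.16 to 15.6 M fell on autosomal genes. Mitochondrially encoded genes took 64.2% ± 10.1 of the counts with semaglutide (SD, n = 10) and 70.1% ± 9.5 without it (n = 9; exact permutation within PYY levels, two-sided p = 0.232, adjusted over 4 tests 0.463). Skeletal muscle genes took 15.6% ± 6.7 of the other counts with semaglutide and 10.5% ± 3.9 without it (exact permutation p = 0.046, adjusted 0.184), and the lowest libraries were semaglutide with PYY A320 at 1.13% and PYY A216 at 2.17%. The 36 pairs of libraries within groups correlated at 0.656 to 0.936 in log2 CPM, and none agreed within counting error.

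Across the autosomes 1 gene passed, Ddr2, which fell with semaglutide. That is 0.00689% of the 14507 autosomal genes (quasi-likelihood test of edgeR, Benjamini-Hochberg adjusted p under 0.05 over all 15079 genes). At an unadjusted p under 0.05 stood 1718 genes (11.8%), of which 1053 were lower (7.26%) and 665 higher (4.58%). The direction of all genes was near balance, with 7459 below 0 (51.4%), 7047 above 0 (48.6%) and a median log2 fold change of -0.019 (interquartile range -0.383 to 0.31). Large differences were mostly downward, since 1180 of the 1638 genes that differed by more than 1 on the log2 scale, and 326 of the 401 that differed by more than 2, were lower with semaglutide. All fold changes are semaglutide over no semaglutide, adjusted for PYY, on the log2 scale, and are given as value ± standard error (SE) after a gene.

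**Figure D1:**
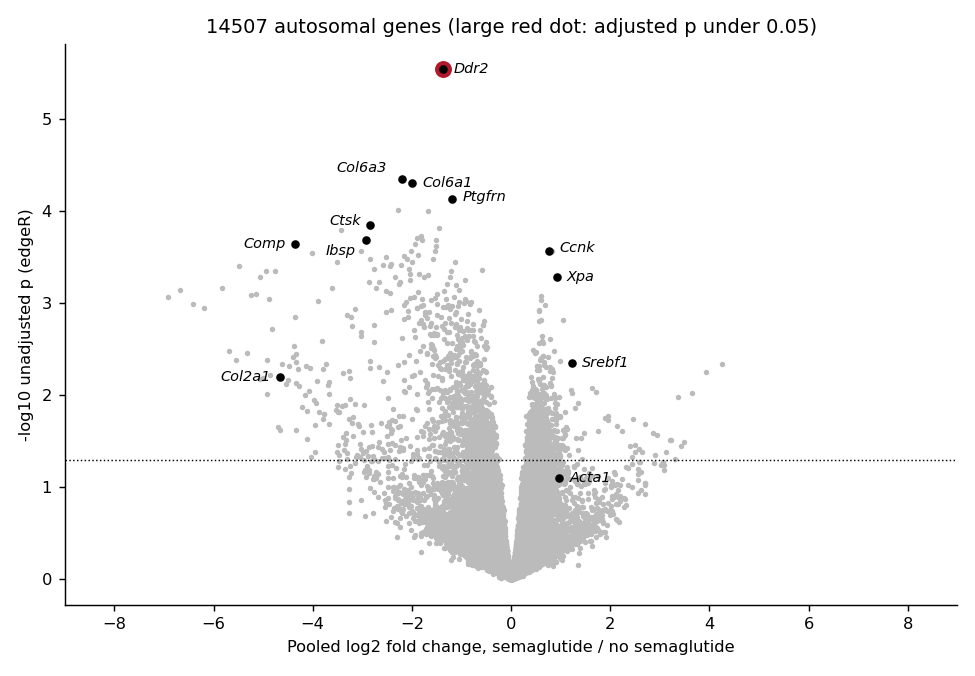
Pooled log2 fold change of semaglutide over no semaglutide (horizontal) against the unadjusted p on a -log10 scale (vertical) for 14507 autosomal genes, with the dotted line at a p of 0.05. Only Ddr2 (large red dot) passed the adjusted threshold, and most genes of large change lie to the left, where collagen, cartilage and osteoclast genes are labelled.

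Ddr2 (chromosome 13, 82195463 to 82317363, mRatBN7.2) encodes the collagen receptor described above. Levels are given as CPM after scaling by TMM factors from edgeR. It stood at 5.35, 7.88, 5.29, 7.78 and 4.6 CPM with semaglutide and at 17.4, 13.6, 26.6, 9.01 and 16.3 with semaglutide and PYY. Without semaglutide it stood at 49.6, 30.01, 27.3 and 26.7 CPM with PYY and at 19.2, 18.0, 30.9, 16.0 and 15.1 with saline. All 10 semaglutide libraries lay below the median of the 9 others, and 7 of them below every one, while A248, A253 and A320 of semaglutide with PYY lay within the saline range and below all PYY libraries. Ddr2 averaged 11.4 ± 7.0 CPM with semaglutide (SD, n = 10) and 25.9 ± 10.8 without it (n = 9), a log2 fold change of -1.37 ± 0.22 (edgeR adjusted p = 0.0432).

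Ddr2 was lower both without PYY (-1.68 ± 0.29, semaglutide over saline) and with it (-1.01 ± 0.29, semaglutide with PYY over PYY), and the difference between these 2 effects had an unadjusted p of 0.115 in edgeR. The adjusted p lay close to the threshold. Leaving out 1 library at a time kept the log2 fold change between -1.44 and -1.23, but the gene passed in only 3 of the 19 such fits (edgeR adjusted p 0.00916 to 0.218). Without PYY A220, 189 genes passed, 160 lower and 29 higher. Matrix genes of A220 lay near the semaglutide levels, but so did those of saline A265, without which 0 genes passed. What set the number of genes was not tested.

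**Figure D2:**
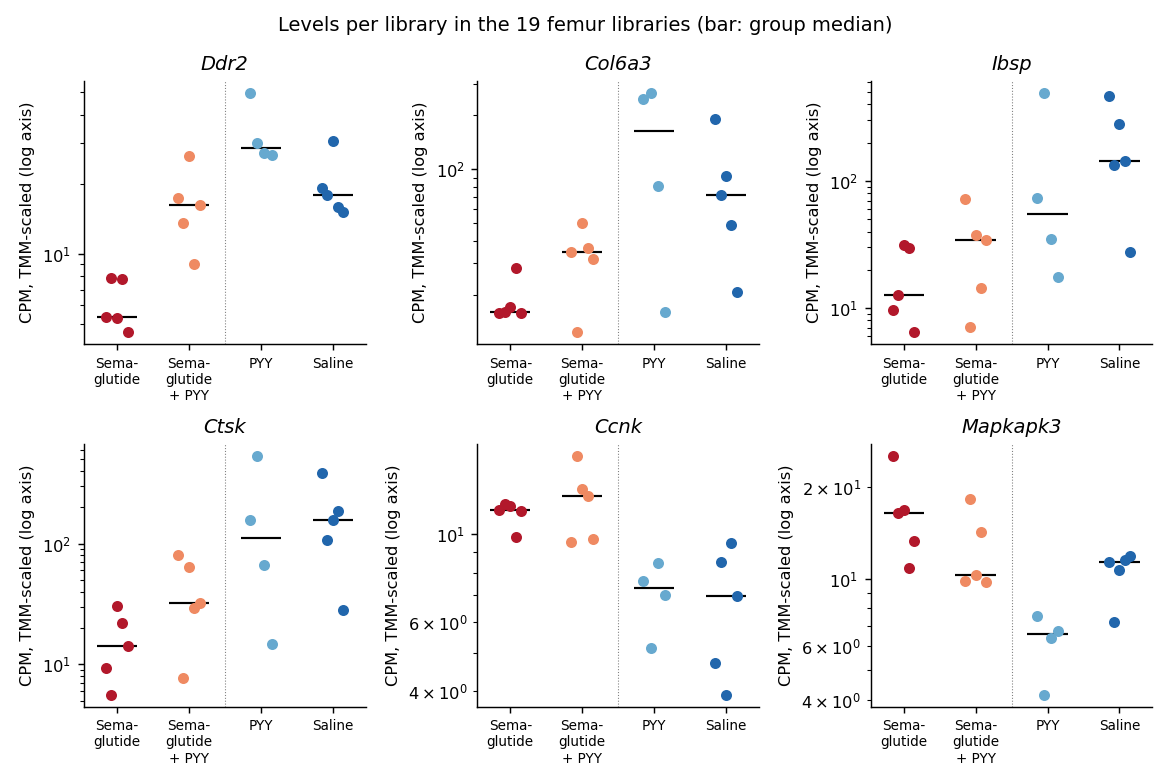
Levels of 6 genes per library in CPM scaled by TMM factors, on log axes, in the groups semaglutide, semaglutide with PYY, PYY and saline, with a bar at each group's median. Ddr2, Col6a3, Ibsp and Ctsk are lower with semaglutide in most libraries, with PYY A220 and saline A265 near the semaglutide levels for the last 3 of these, and Ccnk and Mapkapk3 are higher.

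The genes next to Ddr2 in order of p were also lower with semaglutide, and none passed. They included 2 chains of type VI collagen, a beaded-filament collagen around cells. Col6a3 (chromosome 9, 91361583 to 91439471, mRatBN7.2) was at 12.4 CPM in the lowest, 22.8 in the median and 50.02 in the highest of the 10 semaglutide libraries, against 16.0, 80.9 and 266.3 in the 9 others. PYY A220 (16.0), saline A265 (20.8) and saline A232 (49.1) lay within the semaglutide range, A232 just below its highest library, A253 of semaglutide with PYY, and the other 6 libraries without semaglutide lay above it. Its log2 fold change was -2.20 ± 0.43 and that of Col6a1 -1.996 ± 0.39 (edgeR adjusted p = 0.146 for each). The same adjusted p was reached by Ptgfrn (-1.19 ± 0.24), which encodes a membrane protein that inhibits prostaglandin F2 alpha receptor binding, by Wif1 (-2.27 ± 0.47), a secreted inhibitor of Wnt ligands, and by Arsb (-1.68 ± 0.35), a lysosomal sulfatase that degrades glycosaminoglycans. For Ptgfrn 8 of 10 semaglutide libraries lay below all others, the median being 6.38 CPM with semaglutide and 10.5 without it, whereas for Wif1 no library did, since PYY A220 was the lowest of all at 0.793 CPM.

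Genes of bone-forming osteoblasts were lower with semaglutide in 19 of 20, with a median log2 fold change of -1.77 against -0.019 over all autosomal genes. Of the 20, 17 were lower and 1 higher at an unadjusted p under 0.05, where 7.26% and 4.58% of all autosomal genes stood, and 0 passed after adjustment. Ibsp, a mineral-binding sialoprotein of bone matrix (chromosome 14, 5439829 to 5452693, mRatBN7.2), was at 9.73, 12.8, 31.3, 29.7 and 6.5 CPM with semaglutide and at 72.6, 7.14, 37.6, 14.3 and 34.5 with both drugs. Without semaglutide it was at 74.0, 490.9, 35.2 and 17.5 CPM with PYY and at 465.8, 134.2, 281.9, 142.4 and 27.8 with saline. Among the 9 libraries without semaglutide, PYY A220, PYY A219 and saline A265 lay within the semaglutide range, and 5 of 10 semaglutide libraries lay below all of them. The log2 fold change of Ibsp was -2.93 ± 0.65 (edgeR adjusted p = 0.146).

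The type I collagen chains, the main protein of bone, behaved in a like way. Col1a1 had 58.3 CPM in the lowest, 165.2 in the median and 632.1 in the highest semaglutide library, against 63.8, 913.0 and 3043 in the libraries without it, and its fold change was -2.58 ± 0.61. Col1a2 was at -2.52 ± 0.59 and Col5a2, a fibril-regulating chain of type V collagen, at -1.82 ± 0.40, each with an edgeR adjusted p of 0.146. The alkaline phosphatase gene Alpl, which frees phosphate for mineral, was at -2.03 ± 0.52, and the osteoblast transcription factors Runx2 and Sp7 were at -1.59 ± 0.55 and -1.66 ± 0.57. Osteocalcin, encoded by Bglap, was at -1.33 ± 0.50. The exception was Phospho1, a phosphatase that starts mineral formation in matrix vesicles, at 0.68 ± 0.27, which is named here because it was the only member in the other direction. Its level was 55.1 CPM in the median semaglutide library and 34.8 in the median library without it, with 6 of 10 semaglutide libraries above all others and A320 below all others. The fold change of Phospho1 ran from 0.014 to 0.842 in fits with other scalings, filters, models, covariates or sets of libraries.

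In bulk bone, fewer cells of a type and less RNA per cell cannot be told apart. The muscle share differed as well, in the direction opposite to that of the osteoblast genes. The 22 skeletal muscle genes were all higher with semaglutide, with summed levels of 2575 CPM in the lowest, 62140 in the median and 96130 in the highest semaglutide library, against 4744, 35220 and 51780 without it. With the muscle level as a covariate the osteoblast median was -1.25, with the mitochondrial share as a covariate -1.59, and with 2 surrogate variables, which are components of unexplained variation, -0.66.

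Osteocyte genes stood nearer to the background than osteoblast genes did, with 9 of 11 lower and a median of -0.57. At an unadjusted p under 0.05, 2 of the 11 were lower, a larger share than the 7.26% of all autosomal genes. The membrane collagenase gene Mmp14, which osteocytes and other matrix cells use, was at -1.74 ± 0.47 (edgeR adjusted p = 0.164). Sost, which encodes the Wnt inhibitor sclerostin, was barely counted, at 0 to 3.69 CPM with semaglutide and 0 to 4.39 without it, and its fold change of -0.33 ± 0.73 leaves both directions within its error. Dmp1, a phosphoprotein of mineralizing matrix, was at 3.1, 6.83, 5.56, 11.3 and 6.18 CPM with semaglutide alone, against 54.6, 19.2, 47.1, 24.7 and 10.02 with saline, where 4 of 5 semaglutide libraries lay below all saline ones (-2.24 ± 0.57). With PYY present it was at 18.0, 2.31, 15.6, 20.6 and 34.9 CPM with both drugs, against 19.8, 32.8, 9.93 and 10.6 with PYY, and the effect there was 0.0007 ± 0.57. The difference between these effects had an unadjusted p of 0.0119, the smallest among the 71 genes considered for the text, and an edgeR adjusted p of 0.998.

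Osteoclast genes were lower in 18 of 18, with a median of -1.02, and 0 passed. At an unadjusted p under 0.05, 9 of the 18 were lower, where 7.26% of all autosomal genes stood. Leaving out 1 library at a time gave medians from -1.57 (without semaglutide A241) to -0.68 (without PYY A216), and the median was -0.65 with the muscle level as a covariate and -0.42 with 2 surrogate variables. Ctsk, the cathepsin that cleaves collagen during resorption (chromosome 2, 183058569 to 183069550, mRatBN7.2), was at 5.6, 25.7 and 80.6 CPM in the lowest, median and highest semaglutide library, against 14.8, 155.6 and 535.7 without it. All 10 semaglutide libraries lay below the median of the others, and 4 lay below all of them. Its log2 fold change was -2.83 ± 0.61, and that of the acid phosphatase gene Acp5 -2.84 ± 0.66 (edgeR adjusted p = 0.146 for each). The fusion gene Dcstamp was at -2.83 and the proton pump subunit gene Atp6v0d2 at -2.67. At the other end were the calcitonin receptor gene Calcr at -0.12 and Nfatc1, the transcription factor that drives osteoclast formation, at -0.03. Among the signals that set osteoclast number, the ligand gene Tnfsf11 (RANKL) was at -1.16 ± 1.07, its decoy receptor Tnfrsf11b (OPG) at -2.18 ± 0.83 and the macrophage growth factor Csf1 at -1.03 ± 0.35, and 0 of the 8 genes of that list passed.

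Cartilage genes showed the largest median difference of the 36 lists, with 17 of 17 lower and a median of -4.36. All 17 stood at an unadjusted p under 0.05, where 7.26% of all autosomal genes were lower. The spread of the cartilage genes was as large. Col2a1, the collagen of cartilage, was at 6.36, 30.9, 47.5, 2.81 and 0.412 CPM with semaglutide and at 308.1, 18.6, 255.9, 2.66 and 0.938 with both drugs, against 1.73, 3975, 82.4 and 7.12 with PYY and 2912, 984.5, 1359, 29.1 and 13.5 with saline. Only PYY A216 and the saline libraries A224, A226 and A229 exceeded the highest semaglutide library, and the other 5 lay inside the semaglutide range. The fold change of Col2a1 was -4.65 ± 1.52, that of the proteoglycan gene Acan -4.39 ± 1.34 and that of Comp, a matrix protein of cartilage and tendon, -4.36 ± 0.97 (edgeR adjusted p = 0.268, 0.23 and 0.146). The summed level of the 17 genes ran from 11.9 to 595.8 CPM with semaglutide and from 24.5 to 7747 without it, and how much growth plate each sample held was not tested.

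Connective tissue genes followed the same direction. Genes of fibroblasts and the vessel sheath were lower in 17 of 17, with a median of -1.47, and Ddr2 itself was the 1 member that passed. At an unadjusted p under 0.05, 13 of the 17 were lower, where 7.26% of all autosomal genes stood. Fn1, encoding fibronectin, was at -2.87 ± 0.71, Col3a1 of type III collagen at -2.16 ± 0.50 and the growth factor receptor gene Pdgfrb at -0.82 ± 0.30. Enzymes that fold, trim and cross-link collagen were lower in 19 of 19, 13 of them at an unadjusted p under 0.05 (median -1.10). With 2 surrogate variables the medians were -0.897 for the fibroblast list and -0.455 for these enzymes. Single genes of collagen processing ran from the chaperone gene Fkbp10 at -1.89 and the cross-linking oxidase gene Loxl2 at -1.86 ± 0.45 to the prolyl hydroxylase genes P4ha1 and P4ha2 at -0.18 and -0.10.

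Genes of signalling showed smaller medians. In the Wnt list 19 of 21 were lower (median -0.69, 4 at an unadjusted p under 0.05), among them the secreted inhibitors Wif1, Sfrp4 (-1.50 ± 0.51) and Frzb (-1.66 ± 1.65) and the intracellular antagonist Nkd2 (-1.19 ± 0.37), while the target gene Axin2 was at 0.28 ± 0.69. Frzb had a median of 0 CPM with semaglutide and 1.37 without it, but its highest value, 11.2 CPM, was in a library with semaglutide. In the BMP and TGF-beta list 19 of 21 were lower (median -0.37), with the receptor gene Tgfbr2 at -0.81 ± 0.29 and the BMP target gene Id3 at -0.86 ± 0.30. The genes of nitric oxide and vascular tone, the pathway that L-NAME blocks, were lower in 13 of 17 (median -0.53), with the endothelin receptor gene Ednrb at -1.27 ± 0.49 and Gucy1b1, a subunit of the nitric oxide receptor, at -0.69 ± 0.30. Endothelial genes were lower in 15 of 15 with a median of -0.36, but 1 of 15 stood at an unadjusted p under 0.05, which is near the 7.26% of all autosomal genes that were lower at this p. That gene was Eng, a TGF-beta co-receptor of vessels (-0.60 ± 0.22). Igf1, a growth factor of bone, was at -0.76 ± 0.35 and its carrier Igfbp3 at -0.76 ± 0.30. In the list of the IGF and growth hormone axis 10 of 15 genes were lower and 5 higher (median -0.34). The growth gene Myc was at -0.77 ± 0.24, with 5.14 CPM in the median semaglutide library and 9.42 in the median library without it. Its list, of immediate early and heat shock genes, had 11 of 20 lower and 9 higher (median -0.08). None of the genes named here passed (smallest edgeR adjusted p among them, other than that of Wif1, 0.229).

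No gene passed in the upward direction in edgeR with all 19 libraries, where 665 stood at an unadjusted p under 0.05. The upward number moved with the fit, at 15 with DESeq2, 1122 with limma voom and quality weights, and 29 in edgeR without PYY A220. Ccnk, a cyclin that pairs with the kinases CDK12 and CDK13 in transcription (chromosome 6, 127090569 to 127113191, mRatBN7.2), was at 11.5, 11.9, 11.8, 9.85 and 11.5 CPM with semaglutide and at 9.58, 15.8, 13.1, 12.5 and 9.73 with both drugs. Without semaglutide it was at 7.62, 5.16, 8.47 and 7.0 CPM with PYY and at 4.72, 8.51, 3.92, 9.49 and 6.97 with saline. It was the 1 autosomal gene (0.00689%) whose semaglutide libraries all lay above all others, the lowest of them at 9.58 CPM with both drugs next to the highest saline library at 9.49, and 0 autosomal genes (0%) lay entirely below. Its log2 fold change was 0.76 ± 0.17 (edgeR adjusted p = 0.146), at 0.75 without PYY and 0.78 with it.

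The other upward genes of smallest p were likewise modest in size. Mapkapk3, a kinase activated by p38, was at 9.73, 13.8 and 25.4 CPM in the lowest, median and highest semaglutide library, against 4.16, 7.56 and 11.9 without it (0.82 ± 0.19). The lowest libraries were 3 of the 4 with PYY alone, at 4.16 to 6.73 CPM, and 6 of 10 semaglutide libraries lay above all others. The DNA repair gene Xpa was at 0.93 ± 0.23, the chaperone gene Bag6 at 0.61 ± 0.16, the casein kinase 2 subunit gene Csnk2b at 0.61 ± 0.16 and Slc25a44, a mitochondrial carrier of branched-chain amino acids, at 0.69 ± 0.18 (edgeR adjusted p 0.146 to 0.156). Bag6 (3675938 to 3688657) and Csnk2b (3698733 to 3707133) are close together on chromosome 20 in mRatBN7.2, and in each 7 of 10 semaglutide libraries lay above all others.

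Genes of energy metabolism were higher in number rather than in size. All 30 nuclear genes of oxidative phosphorylation were higher, with a median of 0.61, and 0 passed. Of the 30, 4 were higher at an unadjusted p under 0.05, a larger share than the 4.58% of all autosomal genes. Among these 4 were Ndufv1 of complex I (0.72 ± 0.30) and Cox5a of complex IV (0.71 ± 0.31). The summed level of the 30 genes was 962, 5866 and 8162 CPM in the lowest, median and highest semaglutide library, against 1024, 3814 and 6575 without it, with A320 lowest of all and PYY A220 inside the upper semaglutide range. Fatty acid oxidation genes were higher in 20 of 24 (median 0.58), with medians of 0.98 without PYY and 0.04 with PYY, where 10 of the 24 were lower, and a pooled median of 1.01 without PYY A220. Glycolysis genes were higher in 11 of 14 (median 0.71), 3 of them at an unadjusted p under 0.05. The hexokinase gene Hk2 was at 0.63 ± 0.28 and the glucose phosphate isomerase gene Gpi at 0.77 ± 0.35. Muscle also expresses these genes, and the muscle list stood at 22 of 22 higher (median 0.88, 0 at an unadjusted p under 0.05, Ckm 1.02 ± 0.51 and Acta1 0.97 ± 0.53). With the muscle level as a covariate the oxidative phosphorylation median was 0.071, the fatty acid oxidation median 0.064 and the glycolysis median -0.11, and with 2 surrogate variables these medians were -0.147, -0.115 and -0.149 in the same order.

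Single genes of lipid metabolism and the clock were among the higher ones. Srebf1, the transcription factor of fatty acid synthesis, was at 4.11, 16.7 and 49.1 CPM in the lowest, median and highest semaglutide library, against 3.85, 6.19 and 16.7 without it (1.23 ± 0.38, edgeR adjusted p = 0.238). Of the 10 semaglutide libraries 9 lay above the median of the others, but saline A226, saline A265 and PYY A220 lay among them. The lipase gene Pnpla2 was at 0.81 ± 0.33 and the squalene synthase gene Fdft1 at 0.69 ± 0.27, although the list of fatty acid and cholesterol synthesis as a whole had 13 of 17 genes lower (median -0.38). The clock repressor gene Ciart was at 1.36 ± 0.49, with 0.46 in the absence of PYY and 2.45 in its presence (unadjusted p of the difference 0.0292, edgeR adjusted 0.998). Its counts were low, at 0.209, 0.179, 0.729 and 0.509 CPM with PYY against 2.55, 3.76, 2.59, 1.545 and 0.776 with both drugs. Without PYY it was at 3.58, 1.18, 3.17, 3.49 and 2.69 CPM with semaglutide against 0.554, 2.15, 1.65, 1.94 and 3.98 with saline. Of 16 clock genes 13 were higher, with a median of 0.21 that turned to -0.034 with the muscle covariate and -0.143 with surrogate variables.

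**Figure D3:**
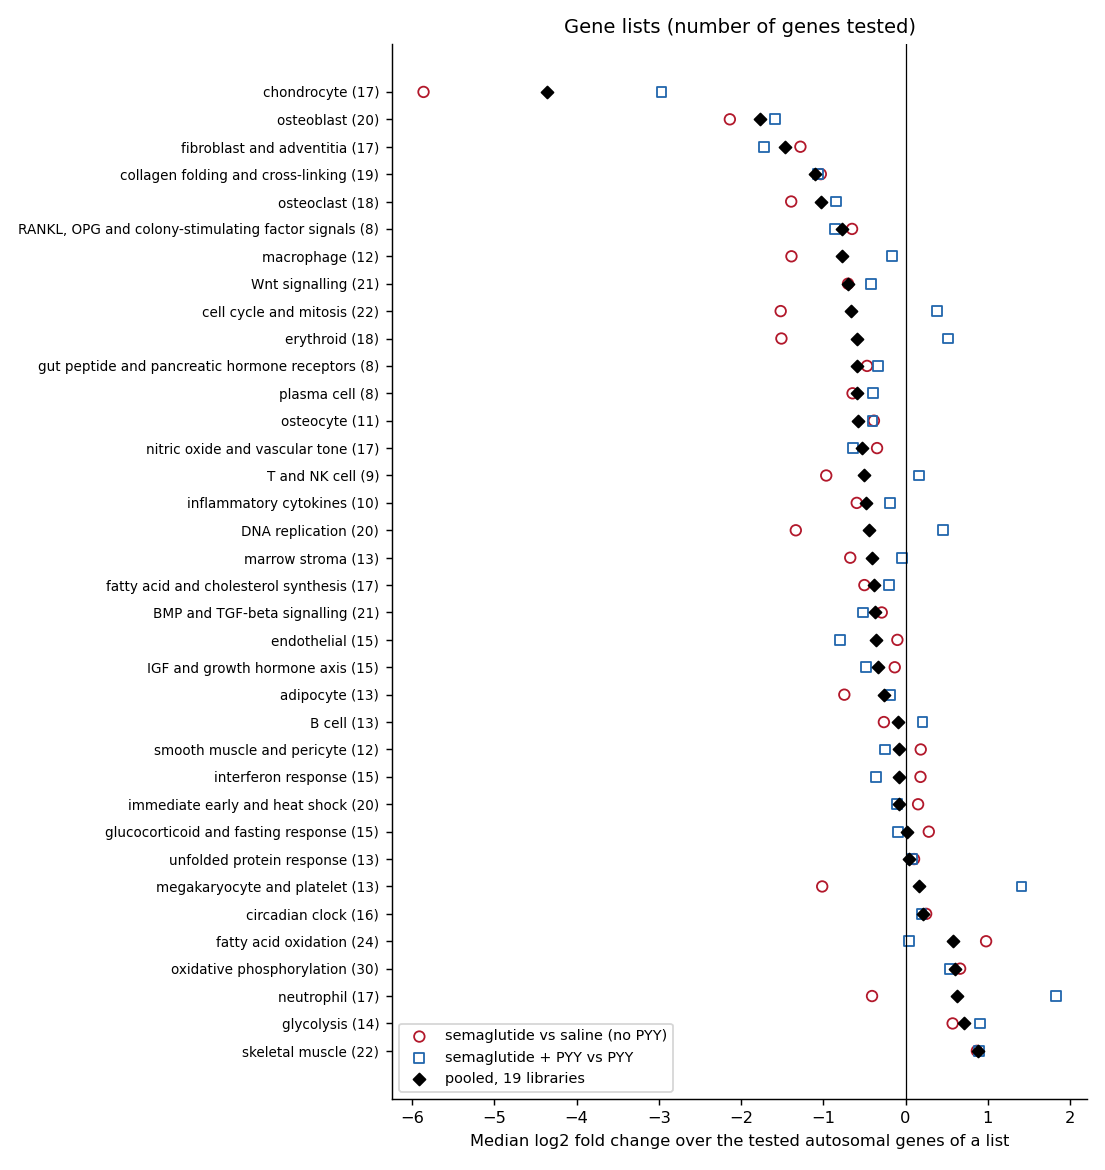
Median log2 fold change over the tested autosomal genes of each of 36 lists, with the number of genes in brackets, for all 19 libraries (diamond), for semaglutide over saline (circle) and for semaglutide with PYY over PYY (square). Cartilage, osteoblast, fibroblast and osteoclast lists lie left of 0 in all 3, oxidative phosphorylation and muscle right of 0, and the erythroid, cell cycle, DNA replication, neutrophil and megakaryocyte lists lie on opposite sides in the circle and the square.

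A pooled effect averages over 2 comparisons that share no library, semaglutide over saline and semaglutide with PYY over PYY. In edgeR 0 genes passed in either, and 0 passed for the difference between them, while DESeq2 called 63 without PYY, 17 with PYY and 8 for the difference. At an unadjusted p under 0.05 stood 1544 genes without PYY (10.6%, 1002 of them lower), 845 with PYY (5.82%, 582 lower) and 606 for the difference (4.18%). The first 2 sets shared 157 genes of the same direction, 146 of them lower, which is 10.2% of the first and 18.6% of the second set, and 15 genes of opposite direction. Over all 14507 genes 8701 (60%) had the same sign in both, and the fold changes correlated at a Pearson r of 0.228 and a Spearman rho of 0.234, across genes, which are not independent replicates and share these libraries.

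**Figure D4:**
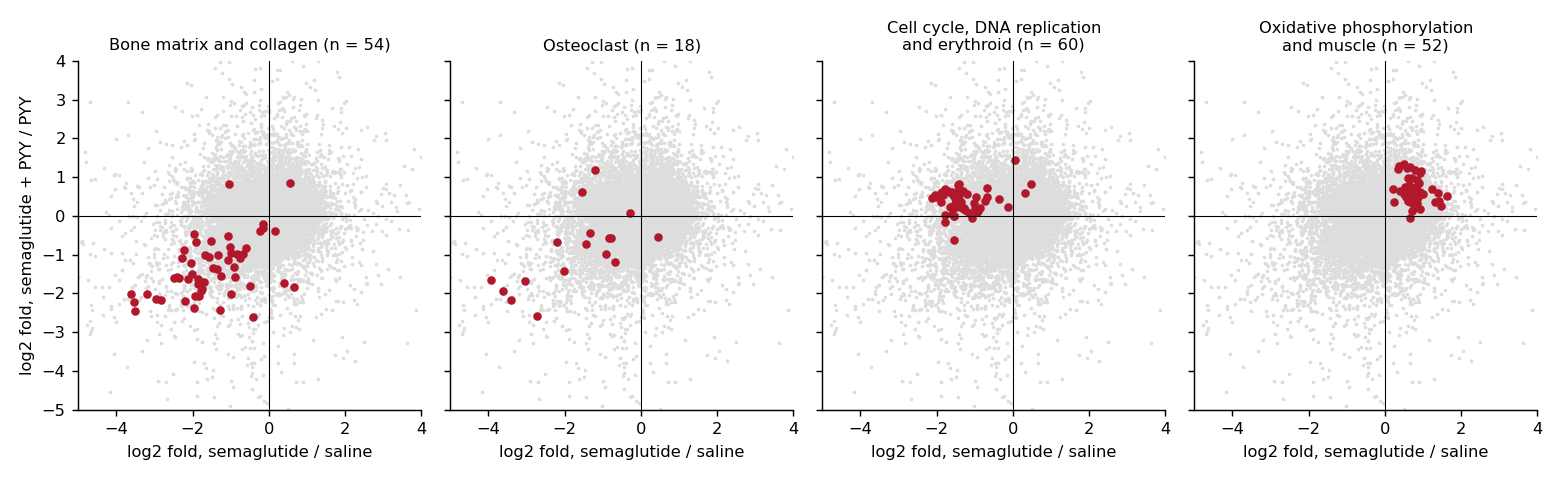
Log2 fold change of semaglutide over saline (horizontal) against that of semaglutide with PYY over PYY (vertical), with all autosomal genes in grey and the genes of the named lists in red (225 genes, 2 of them in these lists, lie outside the axes). Bone matrix and osteoclast genes lie mostly in the lower left corner, oxidative phosphorylation and muscle genes in the upper right, and the proliferation and erythroid genes mostly at the upper left, lower without PYY and higher with it.

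The matrix genes had the same direction in both comparisons, although the size with PYY rested in part on 1 library. All 20 osteoblast genes had the same sign in both, with medians of -2.14 without PYY and -1.59 with it. The collagen VI genes were nearly equal, Col6a3 at -2.19 ± 0.61 without PYY and -2.20 ± 0.63 with it, and the collagen-processing list had medians of -1.03 and -1.07. Cartilage genes were lower in 17 of 17 in both, by medians of -5.86 and -2.97. Osteoclast medians were -1.39 and -0.845, the first being -2.24 without semaglutide A241 and the second -1.40 without A320 of semaglutide with PYY. Without PYY A216 the medians in the presence of PYY were -0.46 for osteoblast, 0.12 for osteoclast and 1.45 for cartilage genes. The cartilage and osteoclast medians thus turned sign without that library, while fibroblast genes stood at -1.77 and collagen-processing genes at -0.71. Fibroblast genes had medians of -1.28 without PYY and -1.72 with it, but without PYY A215 the second was -1.06, so the order of the 2 depended on that library. Endothelial genes had medians of -0.10 without PYY, near 0 (-0.177 to 0.014 with 1 library left out), and -0.79 with it (-0.982 to -0.562).

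Lists of blood-forming and dividing cells had medians of opposite sign in the 2 comparisons, although 0 genes passed for the difference in edgeR. Erythroid genes had a median of -1.51 without PYY and 0.52 with it, and only 3 of 18 had the same sign in both. Hbb, a beta globin gene, was at -1.51 ± 0.78 and 0.30 ± 0.81 (unadjusted p of the difference 0.123). Cell cycle genes had medians of -1.52 and 0.39 (3 of 22 of the same sign) and DNA replication genes of -1.33 and 0.46 (1 of 20), with the proliferation marker Mki67 at -1.69 ± 0.83 without PYY and 0.64 ± 0.86 with it and the replication clamp gene Pcna at -0.98 ± 0.36 and 0.19 ± 0.38. For Mki67 the highest library of both drugs was A320 at 188.1 CPM, and its lowest was A251 at 5.35, against 20.3 to 88.9 with PYY.

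Neutrophil genes had medians of -0.41 without PYY and 1.83 with it, and megakaryocyte genes of -1.01 and 1.41. Without PYY these values moved with single libraries, the neutrophil median being -1.73 without semaglutide A241 and -0.145 without semaglutide A238, and the megakaryocyte median -1.80 without semaglutide A241 and -0.232 without saline A265. The granule genes Ngp and Lcn2 were at 0.83 ± 1.16 and 0.13 ± 0.92 without PYY and at 2.86 ± 1.35 and 2.53 ± 1.06 with it, and the Ngp level ran from 2.17 to 274.7 CPM with both drugs (A251 and A320), against 2.03 to 18.3 with PYY. Library A320 was high in dividing and granulocyte genes and lowest in muscle. Without it the medians with PYY were 0.006 for erythroid, -0.04 for cell cycle, 0.054 for DNA replication, 0.71 for neutrophil and 0.61 for megakaryocyte genes. The first 3 were thus near 0, and only that of the cell cycle genes changed sign. Other libraries moved them too, since without A253 of the same group they were 0.264 for erythroid, 0.097 for cell cycle and 0.038 for DNA replication genes, and without PYY A215 the cell cycle median was 0.118. The pooled medians were -0.60 for erythroid, -0.66 for cell cycle, -0.44 for DNA replication and 0.63 for neutrophil genes. They average 2 comparisons whose list medians had opposite signs with all 19 libraries fitted. In each of the 4 lists 0 genes stood at an unadjusted p under 0.05.

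The pooled effect was spread over the autosomes. The share of tested genes at an unadjusted p under 0.05 was lowest on chromosome 12 at 8.47% and highest on chromosome 20 at 14.6%, with 11.8% over all autosomes. Chromosome medians ran from -0.111 on chromosome 14 to 0.068 on chromosome 20. Lower genes outnumbered higher ones at this p on all autosomes except chromosomes 10 (60 lower, 70 higher) and 12 (15 lower, 26 higher).

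**Figure D5:**
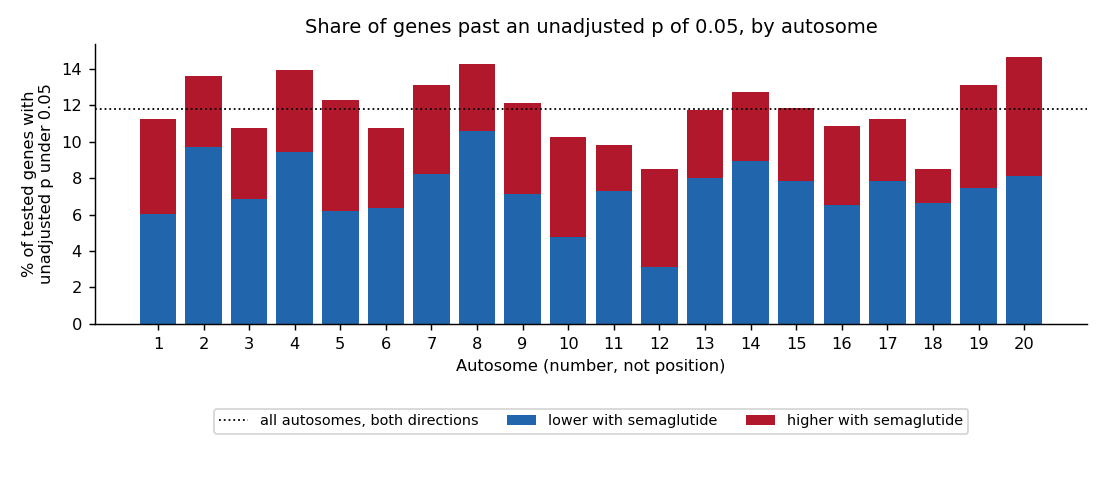
Percent of the tested genes of each autosome with an unadjusted p under 0.05, split into genes lower (lower part of the bar) and higher (upper part) with semaglutide, with a dotted line at the share over all autosomes, 11.8%. Bars run from 8.47% on chromosome 12 to 14.6% on chromosome 20.

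Direction changed with the level of a gene. Autosomal genes were split by mean level into 3 sets of equal size. At an unadjusted p under 0.05, 10.2% of the most abundant set were higher and 7.65% lower, in the middle set 2.77% were higher and 9.45% lower, and in the least abundant set 0.744% were higher and 4.67% lower. Protein-coding genes reached this p in 12.2% of 13525 and long noncoding RNA genes in 7.02% of 741.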

How the data were processed

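Raw counts per Ensembl gene, not normalized, were deposited by the authors, 1 column per library, for 30562 genes. The build was mRatBN7.2, per the submitters' processing notes, which also name DESeq2 1.42.0. For aligner, counter and strand setting, nothing is given in the sources used here, so counts of overlapping, antisense and near-identical genes are uncertain. The deposited FPKM table was not used. Every column matched 1 library by name, and each library counted as 1 sample.

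The 19 libraries were fitted in R 4.3.3 with edgeR 4.0.16 (TMM factors, filterByExpr over the 4 groups with a minimum count of 10, robust quasi-likelihood), with semaglutide and PYY as additive terms and 16 residual degrees of freedom. The Benjamini-Hochberg adjustment ran over all 15079 tested genes, and calls were made at an adjusted p under 0.05. The median gene-wise biological coefficient of variation was 52.2%. SE is the size of the log2 fold change divided by the square root of the F statistic. Effects without and with PYY, and their difference, came from a model with 1 mean per group. Library makeup was tested by exact permutation within PYY levels (31752 permutations). The fit was also run on simulated data. Recovery of the simulated fold changes was required only at a spread smaller than that of these data, so this check does not measure power here.

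The named genes were, in each direction, the 12 called genes of smallest p, filled up to 6 with genes that did not pass, a set of bone, muscle and receptor genes, and the 2 genes of smallest p of each list, of which the text uses part. Some list members were named outside these rules, namely Dcstamp, Atp6v0d2, Calcr, Nfatc1, Fn1, Col3a1, Fkbp10, P4ha1, P4ha2, Sfrp4, Frzb and Axin2. They are not among the 71 genes considered for the text, so the checks of outliers, reversed signs and the PYY difference did not cover them. The 36 lists held 620 entries, of which 606 matched a current symbol, 3 an older one and 11 none. They carry no test and are given by counts and medians. The comparison, the genes and the lists were chosen with earlier results of these data known. Floors are 3 counts and cover counting error only. Alternatives were other scalings, filters, models and covariates (DESeq2 1.42.0, limma 3.58.1, sva 3.50.0) and leaving out each library.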

Additional observations from a re-analysis of the deposited data

Results flagged for a closer look

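Of 148 sets of values, 1 per gene or library measure in the libraries with and without semaglutide, 14 held a library whose gap to its nearest neighbour was large for the range of the set (on a log scale for gene levels), where chance gives about 1 in 20. In libraries with semaglutide, A320 (semaglutide with PYY) was lowest in the muscle genes Acta1 (441.6 CPM against a median of 9342) and Ckm (159.4 against 3848), in Ndufv1 (19.56 against 102.8) and in Phospho1 (10.67 against 55.14), and highest in Igfbp3 (33.56 against 8.155). A253 (semaglutide with PYY) was highest in Igf1 (13.18 CPM against a median of 4.22), in Ebf3, a transcription factor of marrow stroma (16.29 against 5.329), and in total counts (40.65 M against 24.91 M). Semaglutide A241 was lowest in Eng (8.85 CPM against 18.23).

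In libraries without semaglutide, PYY A216 was lowest in Acta1 (417.5 CPM against a median of 5040) and Ckm (421.2 against 1910). PYY A220 was lowest in the macrophage receptor gene Mrc1 (1.18 against 5.964), PYY A215 in the granule gene Ngp (2.032 against 15.92) and saline A224 in Gucy1b1 (2.243 against 6.801). None of the 71 genes considered for the text passed for a difference of the semaglutide effect between libraries with and without PYY (edgeR, smallest unadjusted p 0.0119).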

How the results depend on the processing

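The number of autosomal genes that passed moved with the method more than the fold changes did. It was 1 with upper-quartile factors, without a low-count filter, with a stricter filter, without mitochondrial genes, with an interaction in the model and with all 23 libraries fitted. It was 0 with DESeq2 size factors (Ddr2 adjusted p = 0.0589), limma voom (0.055), no PYY term (0.21), libraries without PYY only (0.0759), libraries with PYY only (0.995), the muscle level (0.177) or the mitochondrial share (0.0576) as a covariate, and 2 surrogate variables (0.139). It was 211 with DESeq2 (15 higher, 196 lower) and 2273 with limma voom and quality weights (1122 higher, 1151 lower). Leaving out 1 library at a time gave 0 to 189 genes, with 1 without semaglutide with PYY A253 or PYY A219 and 189 without PYY A220. Chosen after seeing the data, leaving out the 3 libraries of over 80% mitochondrial counts gave 1 gene (Ddr2 adjusted p = 0.0198), and leaving out the 2 of lowest muscle share gave 0 (0.0642). In edgeR the comparisons without PYY, with PYY and of their difference had 0 genes, against 63, 17 and 8 with DESeq2. The comparison with PYY had 425 with quality weights and 3 without PYY A220. The causes were not tested.

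Ddr2 was lower in every fit run, by -1.70 to -1.01. Reversed signs, all in genes that did not pass, were those of Ngp (-0.003 with voom and -0.715 with quality weights), Lcn2 (-0.669 with quality weights), Dmp1 (0.002), Hbb (0.309), Mki67 (0.649) and Pcna (0.195) in libraries with PYY only, Ckm (-0.182 with the muscle covariate, -0.421 with surrogate variables), Acta1 (-0.244) and Tnfsf11 (1.832) with surrogate variables. The osteoblast median stayed between -2.15 and -0.66 and the cartilage median between -5.93 and -2.84 in every fit run, apart from the medians within PYY levels with 1 library left out, given above and also chosen after seeing the data. The muscle covariate is the mean log2 level of the muscle list itself, which includes Ckm. It therefore takes out the difference of these genes by construction, and the muscle median of -0.262 with it is no check. With surrogate variables the muscle median reversed to -0.386. The pooled neutrophil median turned to -0.525 with voom, -0.939 with quality weights and -0.008 without the 2 libraries of lowest muscle share, and was between 0.085 (without semaglutide A241) and 0.867 with 1 library left out. The pooled megakaryocyte median, 0.168, turned to -0.179, -0.582 and -0.203 in the same 3 fits and lay between -0.321 and 0.597 with 1 library left out. With 2 surrogate variables the medians were -0.212 for Wnt, -0.164 for BMP and TGF-beta, -0.234 for nitric oxide and -0.152 for endothelial genes. Leaving out 1 library moved the Wnt median to -0.412 (PYY A216), the endothelial to -0.232 (semaglutide with PYY A253), the erythroid to as far as -0.38 (saline A232) and the DNA replication median to as far as -0.724 (semaglutide with PYY A320). No paired analysis was possible because the groups share no replicate number. Depth limits genes of low counts, such as Sost, Tnfsf11 and Ciart.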

Other observations

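Adipocyte genes showed no common direction, with 8 of 13 lower with semaglutide and a median log2 fold change of -0.27. The hormone gene Adipoq was at -0.39 ± 0.50 and Pparg, the transcription factor of fat cells, at -0.98 ± 0.38 (edgeR adjusted p = 0.345). Macrophage genes were lower in 12 of 12, with the complement gene C1qa at -0.79 ± 0.31 and Mrc1 at -0.94 ± 0.40, and their medians were -1.39 without PYY and -0.17 with it. Of the receptors of PYY and neuropeptide Y, Npy1r was counted in all 19 libraries, at 1.48 to 10.4 CPM with semaglutide and 1.4 to 18.1 without it (-0.66 ± 0.45), whereas Npy2r and Npy4r were counted in 1 library each, PYY A216 with 7 counts and saline A229 with 15.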
